A study of Mus musculus with 6 samples.

Results

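The genes described here encode BH3-only proteins, the members of the BCL2 family that carry a single BCL2 homology domain and set off apoptosis through mitochondria. All 8 were found among the 22320 genes of the authors' comparison: Hrk, Bbc3, Pmaip1, Bcl2l11, Bmf, Bik, Bid and Bad. They were chosen by family membership and by the difference between the group log2 means that Hrk showed in this same comparison. The values of the members are therefore a description, and no independent measurement of them was analysed here.

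The libraries hold poly(A) RNA of whole mouse testes collected at postnatal day 1.5, on a mixed C57BL6/J and 129/SvEv background, in 3 pools of 4 testes per group. The Arid4bSCKO mice (Arid4b-/Flox; Amh-cre) carried a null and a floxed allele of Arid4b, and the control mice (Arid4b+/Flox; Amh-cre) a wild-type and a floxed one. Both groups carried Cre recombinase driven by the promoter of Amh, a gene of Sertoli cells, which are the somatic support cells inside the testis cords. The floxed allele could thus be cut in Sertoli cells of the controls too, and the null allele was present in every cell of the Arid4bSCKO mice. Nothing in the labels says that the pools came from separate litters, so the deposited p-values reflect only how these pools varied, which may be technical. Values of single pools were not analysed here.

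Depth, read from what 1 read is worth in genes seen in a single library, came to some 18.6 M reads in a control library and 17.5 M in an Arid4bSCKO one. Arid4b itself was at 35.1% of control (log2 difference -1.51, 95% interval -1.82 to -1.21), where the authors' deposited table gives an FDR (false discovery rate) of 0.0535. Markers of Sertoli, germ, Leydig, myoid and endothelial cells and of macrophages were read in both groups, and 0 of them were listed at 0.

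BH3-only proteins bind through their BH3 helix to the groove of other BCL2 proteins. BIM (Bcl2l11), BID and PUMA (Bbc3) are usually classed as activators, able to engage the pore formers BAX and BAK directly. HRK, BIK, BAD, BMF and NOXA (Pmaip1) are usually classed as sensitizers, which occupy guardians such as BCL-XL and MCL1 and so free what these had held. In the testis, this pathway is known for the removal of germ cells during early spermatogenesis.

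Hrk and Bbc3 had the largest differences among the members, and the bases before their start sites are shown because these are the members the results turn on. Promoters were taken from RefSeq (GRCm38.p6, the build that mm10 names) for 6 of the 8 members. No promoter of Bik or Pmaip1 was included in the search. The windows are the 250 bases before the start site, on the plus strand in both genes, at chr5:118169514-118169763 for Hrk and chr7:16309333-16309582 for the Bbc3 start that the authors' table lists. Capitals mark the cyclic AMP response element half-site TGACG, which lies on the opposite strand in both.
Hrk: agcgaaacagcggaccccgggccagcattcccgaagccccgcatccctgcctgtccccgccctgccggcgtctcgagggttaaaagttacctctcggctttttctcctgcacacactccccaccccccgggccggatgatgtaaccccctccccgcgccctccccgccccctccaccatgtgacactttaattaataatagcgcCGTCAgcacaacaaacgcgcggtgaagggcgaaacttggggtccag
Bbc3: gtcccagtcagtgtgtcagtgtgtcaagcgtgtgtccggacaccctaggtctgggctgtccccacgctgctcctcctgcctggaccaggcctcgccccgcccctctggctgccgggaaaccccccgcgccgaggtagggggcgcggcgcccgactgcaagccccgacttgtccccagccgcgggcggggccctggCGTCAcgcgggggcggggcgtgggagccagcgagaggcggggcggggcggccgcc

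The half-site lay from -46 to -42 in Hrk and from -55 to -51 in Bbc3, counted from the start site. Both strands of 12 windows of 6 members were searched for 9 motifs of factors that can act on these genes. The half-site was in 3 of the 12 windows, with the third in Bmf, and in 17.8% of all 32851 promoters of the same length. The whole element TGACGTCA (1.55% of all promoters), the AP-1 motif TGANTCA (6.75%) and the E2F motif TTTNNCGC (4.28%) were in 0 of the 12. The FOXO motif TGTTTAC (3.17% of all promoters) was in 1 further Bbc3 window and in 1 window of Bcl2l11, and the p53 half-site (7.13%) in 1 window of Bmf. The E-box CACGTG (6.02%) was in 1 Bbc3 window, and the E-box CAGGTG (17.2%) in 1 window each of Bbc3 and Bad. The GC box GGGCGG, which can overlap itself, was in 8 windows of 5 members and in 32.7% of all promoters, with 2 matches in the Hrk window and 5 in the Bbc3 window shown. The 12 windows were 54.0% to 81.6% G or C, beside a median of 52.4% over all promoters, so that share is not a matched background. These matches describe letters only and give no evidence of binding.

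Hrk, the gene of the sensitizer harakiri, was the member with by far the largest difference. Its authors' mean was 4.03 in control and 10.63 in Arid4bSCKO, on a scale of log2(normalized count + 1). These means stand for 15.4 and 1579 normalized counts, or about 12.5 and 1174 reads per library. Hrk was thus scarce in control testes and well expressed in Arid4bSCKO testes. The difference was 6.59 log2 units (standard error 0.38, 95% interval 5.54 to 7.65). As a ratio of normalized count + 1 it was 96.6-fold, with an interval of 46.4 to 201-fold. It had rank 1 among the 19095 genes whose mean level over both groups reached 1, ahead of Cldn4 at 5.49. The control value rests on few reads, and the spread that the deposited p implies (SD 0.47 between pools) was 2.23 times the median SD of genes at a like mean level. Hrk itself had that mean level in neither group.

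**Figure D1:**
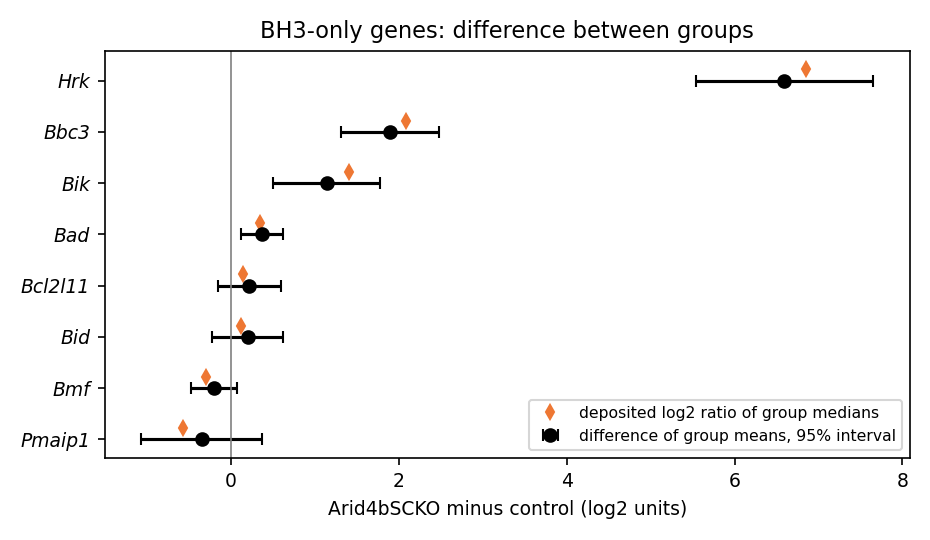
Difference between Arid4bSCKO and control in log2 units for each BH3-only gene (black points, with 95% intervals), with the deposited log2 ratio of group medians (orange diamonds). Hrk stands at 6.59 and the other 7 genes lie between -0.35 and 1.90.

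Bbc3, the gene of PUMA and a known target of p53, was the next largest. Its mean was 6.09 in control and 7.99 in Arid4bSCKO, which is 67.2 and 253 normalized counts. The difference of 1.90 (standard error 0.21, 95% interval 1.31 to 2.48) put the Arid4bSCKO level 3.72-fold higher. Bik, whose product binds guardians at the endoplasmic reticulum, was at 6.17 in control and 7.31 in Arid4bSCKO. Its difference was 1.14 (standard error 0.23, 95% interval 0.50 to 1.77), or 2.20-fold. These 2 genes had about 54.7 and 57.7 reads per library in control, more than Hrk and fewer than the remaining members. With Hrk they made 3 of 8 members that were higher by at least 1 log2 unit, against 3.50% of the 19095 genes.

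The other activators had small differences. Bcl2l11, the gene of BIM, had means of 9.03 in control and 9.24 in Arid4bSCKO, a difference of 0.22 with an interval of -0.16 to 0.59. Bid, whose product is activated by caspase 8, had means of 8.74 and 8.93 and a difference of 0.20 (-0.22 to 0.62). Both intervals include 0, and their upper bounds leave room for levels of up to 151% and 153% of control. The ratio of group medians in the authors' deposited table was smaller for both, at 0.14 and 0.12. With a trend over transcript length removed, Bcl2l11 was at 0.35.

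Among the other sensitizers, Bad was slightly higher. Its means were 8.97 and 9.34, and the difference of 0.37 (95% interval 0.12 to 0.62) is 129.5% of control as a ratio of normalized count + 1. Bad shares 517 exon bases with Gpr137 on the opposite strand. Use of strand in the counting is not given in the sources used here, so reads there could fall to either gene, and Gpr137 itself was at 0.08 (-0.28 to 0.43). None of the other 7 members shares exon bases with another annotated gene (0 bases each).

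Bmf and Pmaip1 were the 2 members with negative differences. Bmf, whose product is held at the cytoskeleton, had means of 9.86 and 9.66 and a difference of -0.21 (95% interval -0.48 to 0.07). Pmaip1, the gene of NOXA and like Bbc3 a p53 target, had means of 8.48 and 8.13 and a difference of -0.35 (-1.07 to 0.37). Its deposited ratio of medians was larger, at -0.57, and its SD of 0.32 between pools was 2.01 times that of genes at a like level. With the length trend removed, Bmf was at -0.11. Neither interval excludes 0, and that of Pmaip1 spans from 47.7% to 129% of control.

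**Figure D2:**
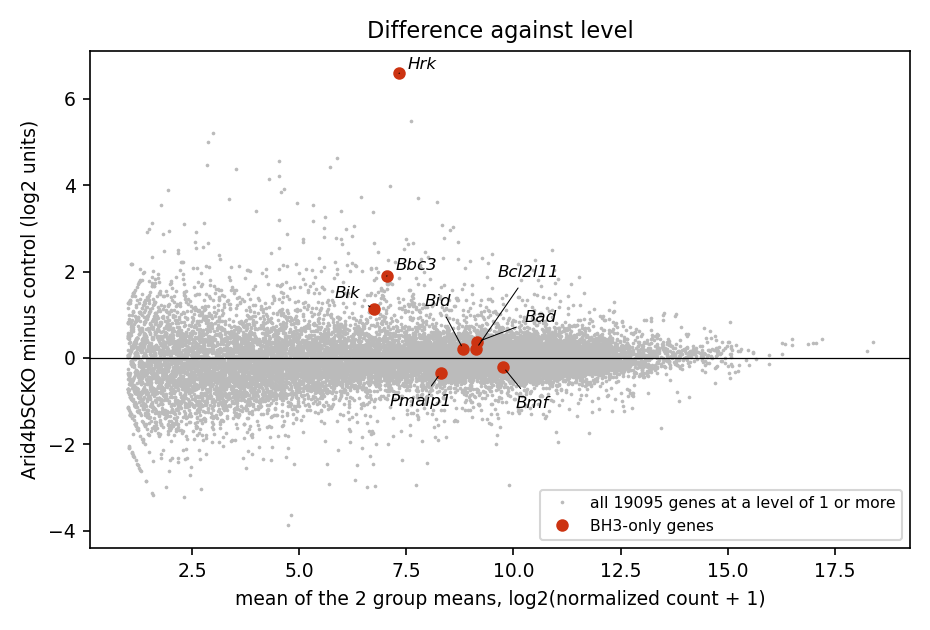
Difference between groups (log2 units) against the mean of both group means for 19095 genes at a level of at least 1 (grey) and the 8 BH3-only genes (red). Hrk is the highest point of the plot, Bbc3 and Bik lie above the main cloud, and the other 5 lie within it.

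Counts past a threshold followed the same order. Of the 8 members, 1 (Hrk, FDR 0.0347) was higher at a deposited FDR below 0.05 (the authors' deposited table), against 0.139% of all genes. The count as lower was 0, against 0.121% of all genes. Bbc3 stood at an FDR of 0.0806, Bik at 0.126 and Bad at 0.148, and the other 4 between 0.343 and 0.543. A deposited p, not adjusted, below 0.05 was met by 4 members as higher, Hrk, Bbc3, Bik and Bad, against 9.86% of all genes, and by 0 as lower, against 11.1%. A test moderated with limma, which borrows the spread from genes of like level, called the same 4 as higher, against 7.37% of the 19095 genes, and 0 as lower, against 6.46%. Its adjusted p-values, by limma with Benjamini-Hochberg adjustment, were 2.02e-06 for Hrk, 2.76e-04 for Bbc3, 0.00615 for Bik and 0.039 for Bad. The level it used was the mean of both group means, which Hrk (4.03 in control and 10.63 in Arid4bSCKO) had in neither group. The rule used this contrast, so nothing is read from these counts. The median difference of the members was 0.295, beside -0.04 over the 19095 genes.

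The call for Hrk depended on which genes the deposited p-values were adjusted over. Readjusted over the 19095 genes alone, Hrk was at 0.0584 and no member passed (0 of 8). In a moderated limma test without a trend of the spread and without robust fitting, Hrk (adjusted p = 0.0117) and Bbc3 (0.0315) passed, and Bik (0.0657) and Bad (0.112) did not. The share of all genes called under these settings was not worked out.

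Levels were compared between genes as normalized counts per kilobase of annotated exon. In control, Bad (209), Bid (194) and Bmf (192) were the most abundant, and the gaps between them were within the spread between pools. Pmaip1 followed at 130.1, Bcl2l11 at 75.4, Bik at 48.1 and Bbc3 at 37.1, of which Bik and Bbc3 did not differ beyond their spread. Hrk was last at 2.855, below Bbc3 by a gap of 3.70 log2 units. In Arid4bSCKO, Hrk (294) and Bad (271) had the highest levels and did not differ beyond their spread. The gap from Hrk to Bid, 0.40 log2 units, was also within their combined SD of 0.50. That from Bad to Bid, 0.28, was above theirs of 0.22. Bid was at 223, Bmf at 167, Bbc3 at 139.5, Bik at 107, Pmaip1 at 102 and Bcl2l11 at 87.7, and the gaps from Bmf to Bbc3 and among the last 3 were within the spread. When the longest transcript was used as the length, an alternative added after the data were seen, Bad (423) stood above Hrk (294) by more than the spread. In control, Bad (327) then stood above Bmf (200.3), and Bik (53.1) above Bbc3 (37.1), by more than the spread. Pmaip1 and Bcl2l11 then did not differ beyond theirs in control.

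**Figure D3:**
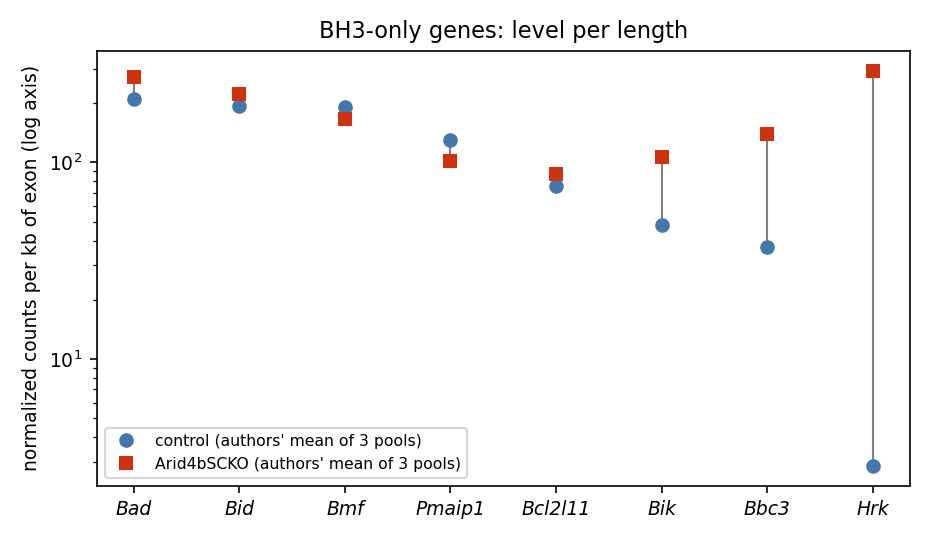
Level per kilobase of exon (log axis) of the 8 BH3-only genes in control (blue circles) and Arid4bSCKO (red squares), each the authors' mean of 3 pools. Hrk goes from the lowest level in control, 2.855, to the highest in Arid4bSCKO, 294, where Bad at 271 and Bid at 223 were within the spread.

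The summed level per kilobase of the 8 genes was 889 in control and 1390.0 in Arid4bSCKO, a ratio of 1.56. Without Hrk the ratio was 1.24. Hrk made up 0.321% of the sum in control and 21.1% in Arid4bSCKO. Bbc3 went from 4.17% to 10.03% and Bik from 5.41% to 7.67%. The share of the other 5 was smaller in Arid4bSCKO. Bad went from 23.5% to 19.5%, Bid from 21.8% to 16.0% and Bcl2l11 from 8.48% to 6.31%. Bmf went from 21.6% to 12.0% and Pmaip1 from 14.6% to 7.33%. Of these 5, Bad, Bid and Bcl2l11 had positive differences in level, and their shares were smaller because the sum was larger. Bmf and Pmaip1 had lower levels of their own besides the larger sum. Sums and shares come from group means and carry no error of their own.

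**Figure D4:**
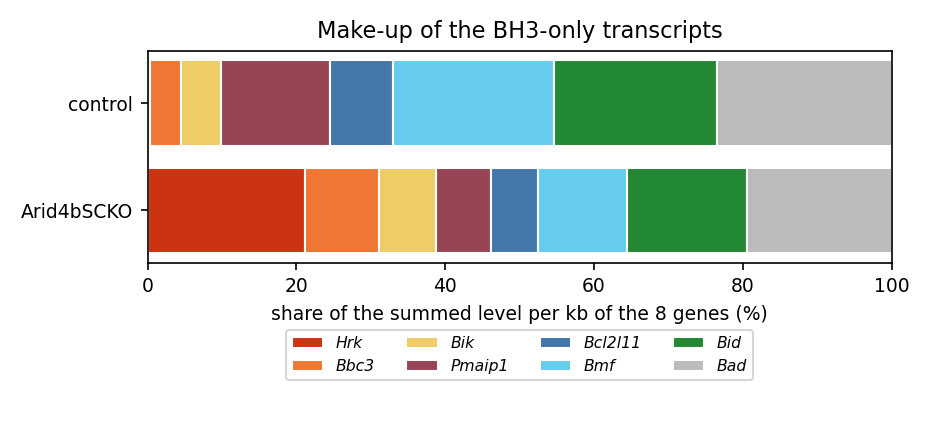
Share of each gene in the summed level per kilobase of the 8 BH3-only genes, in percent, in control (top) and Arid4bSCKO (bottom). The red segment of Hrk is 0.321% in control and 21.1% in Arid4bSCKO.

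Genes most like Hrk or Bbc3 were sought outside the members and among named genes only, leaving out provisional symbols (such as Gm, Rik and LOC names). The nearest were found by the distance between the pairs of group means in log2 units, over 2 group means each. For Hrk they were Cldn4, a tight junction gene (4.85 in control and 10.35 in Arid4bSCKO, distance 0.87), Neurl3 (5.14 and 9.12, distance 1.87) and the stress-induced transcription factor gene Atf3 (5.92 and 9.62, distance 2.14). For Bbc3 they were Apobec1 (distance 0.08), Nlrp10 (0.11) and Gpr126 (0.14), with means near 6.02 to 6.22 in control and 7.91 to 7.999 in Arid4bSCKO. Since Hrk was chosen for its difference, the distances of its nearest genes are a description.

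The genes beside Hrk on chromosome 5 had smaller differences, of either sign. The gene spans chr5:118169764-118189478 (mm10, plus strand) in 2 exons and encodes 92 residues. Rnft2, 1.26 kb away, was at -0.49 (95% interval -1.07 to 0.08), and Fbxw8, 14.3 kb away on the other side, at 0.08 (-0.23 to 0.39). Past these, 2410131K14Rik was at 1.095 (0.86 to 1.33) and Tesc, 108 kb away, at 1.22 (1.07 to 1.38). Of the 4, Tesc passed the FDR in the authors' deposited table (0.0205), where 0.139% of all genes did as higher. The moderated limma test called Tesc (adjusted p = 9.52e-06) and 2410131K14Rik (1.10e-04) higher, against 7.37% of the 19095 genes. It did not call Rnft2 (0.0704) or Fbxw8 (0.648).

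The partners of these proteins at the mitochondrion had differences in both directions, from -0.55 to 1.41. Of 26 guardian, pore-former, apoptosome and caspase genes, 0 passed the FDR in the authors' deposited table, 5 had an unadjusted p below 0.05 as higher (9.86% of all genes did) and 4 as lower (11.1% of all genes), and the median difference was 0.13. In the moderated limma test 3 were called higher and 4 lower, against 7.37% and 6.46% of the 19095 genes. Without trend and robust fitting that test called 0 of them. Those with the smallest p were Bax, the pore former, at 0.36 (95% interval 0.24 to 0.49), Xiap, a caspase inhibitor, at -0.39 (-0.54 to -0.23), Casp9, the initiator caspase, at -0.46 (-0.67 to -0.25), and Bcl2l1, the gene of BCL-XL, at -0.37 (-0.62 to -0.13). The moderated limma test with the trend over transcript length removed called 4 of the list. Casp9 and Bcl2l1 were among them, and Bax (adjusted p = 0.0951) and Xiap (0.0658) were not. The largest values of the list, singled out for their size, were those of the guardian genes Bcl2a1d at 1.41 (-0.25 to 3.06) and Bcl2a1b at 1.35 (-0.28 to 2.98), near-identical copies whose counts are uncertain. Both intervals include 0. BCL-XL is the guardian that HRK is best known to bind. Per kilobase of exon, Bcl2l1 was at 430.1 in control and 332 in Arid4bSCKO, beside 2.855 and 294 for Hrk.

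Proteins that hold, modify or cut BH3-only proteins had mostly small differences in messenger RNA. Of 28 genes, 1 passed the FDR in the authors' deposited table: Dynll1, a dynein light chain that can hold BIM, at 0.23 (95% interval 0.20 to 0.27, FDR 0.0341). Its SD between pools was 0.016, and it missed the moderated limma test (adjusted p = 0.0535). Dynll2, singled out as the other dynein light chain gene of the list, was at -0.125 (-0.24 to -0.01). At an unadjusted p below 0.05 there were 3 genes higher and 6 lower, where 9.86% and 11.1% of all genes were, and the median of the list was 0.05. Mapk9, a JNK kinase gene, was at -0.27 (-0.38 to -0.17), and Pim3, a BAD kinase gene, at -0.22 (-0.34 to -0.11). In the moderated limma test Mapk9 was called lower and Casp8, named for its call, higher, against 6.46% and 7.37% of the 19095 genes. Without trend and robust fitting that test called 0 of the list. In the moderated limma test with the trend over transcript length removed, Casp8 was still called and Mapk9 was not (adjusted p = 0.156). Sfn, a 14-3-3 gene singled out for the largest value of the list, was at 2.15 with an interval of -1.02 to 5.32.

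Transcription regulators of BH3-only genes, the longest of these lists, held the most calls by number in the moderated test. Of 32 genes 0 passed the FDR in the authors' deposited table, 7 had an unadjusted p below 0.05 as higher (9.86% of all genes) and 6 as lower (11.1%), and the median was 0.15. The moderated limma test called 5 higher and 6 lower, against 7.37% and 6.46% of the 19095 genes. Without trend and robust fitting it called 1 of these 11, Cebpb. Stress-linked Cebpb, Atf4 and Ddit3, the last the gene of CHOP, were at 1.12 (95% interval 0.88 to 1.36), 1.08 (0.53 to 1.63) and 1.12 (0.53 to 1.70). Cebpa was at -1.09 (-1.65 to -0.54). Singled out because they are textbook regulators of members, Trp53 was at 0.17 (-0.17 to 0.51), Foxo3 at -0.17 (-0.71 to 0.37), E2f1 at -0.58 (-1.06 to -0.10), Myc at 1.36 (0.38 to 2.33) and Jun at 0.70 (0.14 to 1.26). Of these 5, the moderated limma test called Myc and Jun higher and E2f1 lower. Named for being called lower too, E2f2 was at -0.54 (-0.91 to -0.17) and Foxo1 at -0.43 (-0.79 to -0.07). Rest was at -0.41 (-0.73 to -0.10) and Hif1a at -0.33 (-0.62 to -0.05), both also called lower. In that test with the trend over transcript length removed, the adjusted p-values of E2f2, Foxo1, Rest and Hif1a were 0.0628, 0.128, 0.1055 and 0.15.

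**Figure D5:**
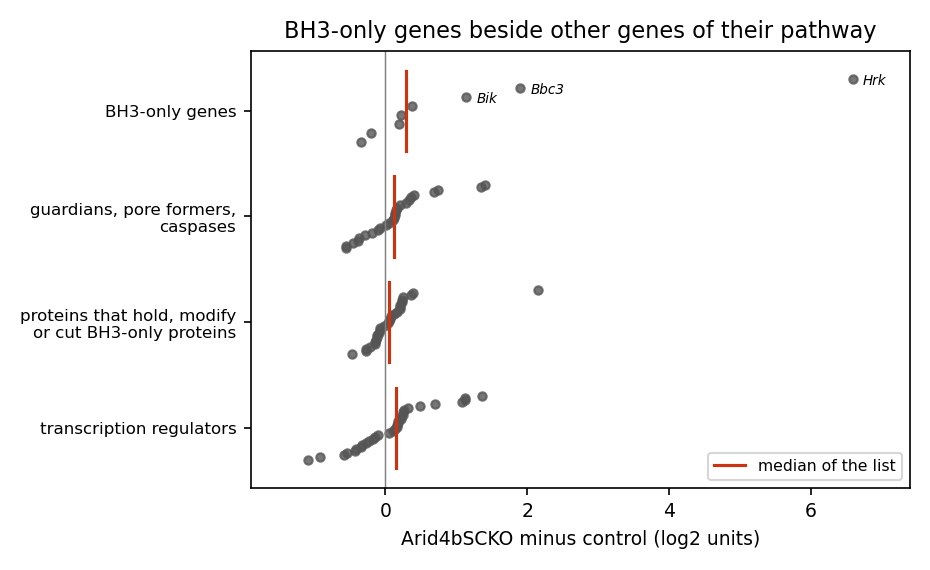
Difference between Arid4bSCKO and control (log2 units) for each gene of the BH3-only group and of 3 lists of related genes, one point per gene sorted by value, with the list median as a red line. Hrk, Bbc3 and Bik are named, and Hrk at 6.59 lies beyond every gene of the other lists.

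Cell type markers moved in the same comparison. All 12 macrophage markers found had positive differences (median 1.03, summed level 3277 normalized counts in control and 7396 in Arid4bSCKO). Of 12 Sertoli cell markers 10 had negative ones (median -0.79, 77370 and 42210), and of 10 germ cell markers 6 had negative ones (median -0.35, 9882 and 7970). Leydig, endothelial and myoid medians were -0.08, -0.20 and 0.21. Neuronal markers, included since Hrk is known from neurons, were split 4 and 4 in sign, with a median of -0.09 and summed levels of 1593 and 3039. Of these sums, Tubb3 made up 1175 and 2641, and the other 7 neuronal markers summed to 418 in control and 398 in Arid4bSCKO. Their part in the BH3-only differences was not tested. In whole testes, more cells of a type and more RNA per cell cannot be told apart.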

How the data were processed

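Strand-preserving poly(A) RNA libraries of 6 testis pools were made and sequenced, per the labels' protocols. The submitters' processing notes list STAR 2.4 and mm10; the counting tool, the annotation and the method of normalization were not given in the sources used here. Per the file headers and the field descriptions deposited with the table, it gives the authors' mean of log2 normalized counts per group, a log2 ratio of group medians, an unadjusted p-value of an equal-variance comparison and the Benjamini-Hochberg FDR (adjusted p-value) over 22320 genes. The lowest mean is 0, read here as an added 1.

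Differences are Arid4bSCKO minus control. Standard errors, SDs and 95% intervals were worked back from the deposited p-values with 4 degrees of freedom. Folds, on the log2 scale or not, and percentages of control are of normalized count + 1 and understate changes of genes with few reads. The main rule was the deposited FDR below 0.05. A moderated test (limma 3.58.1 in R 4.3.3, squeezeVar with trend and robust fitting) covered 19095 genes whose mean level reached 1 and was tested on simulated data. Gene lengths are unions of GENCODE M21 exons (GRCm38), matched for 92.8% of these genes. Trends were lowess fits (fraction 0.3). Differences fell with gene length, with a Spearman correlation of -0.21.

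All 8 members were named, from each list the 4 genes of smallest deposited p, and any past the FDR, the 3 genes most like Hrk and Bbc3 each, the 2 table genes on each side of Hrk, and Arid4b; any other gene was singled out after its values were seen. A gene that the rule names is not reported here. Members and lists were chosen with earlier results of these data known. Alternatives were other tests, filters, centrings and lengths.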

Additional observations from a re-analysis of the deposited data

How the results depend on the processing

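The 8 differences kept their direction under all 5 alternatives (ratio of medians, median centring, trends over level and over transcript length removed, no added 1), and each of these 40 values lay within 1 SD of the reported one. Hrk ranged from 6.63 to 6.85, Bbc3 from 1.85 to 2.09, Bik from 1.06 to 1.41 and Bad from 0.34 to 0.41. Counts of calls depended on the test. The moderated test called 4 members (4 also with the length trend removed), 7 partner genes, 2 handling genes and 11 regulators, against 1, 0, 1 and 0 by the deposited FDR. With the length trend removed it called 4 partner genes, 2 handling genes and 10 regulators, not all of them the same genes. Without trend and robust fitting it called 2 members, 0 partner genes, 0 handling genes and 1 regulator (Cebpb). The deposited p-values readjusted over genes at a level of at least 1 gave 0 in each list. For the length-trend removal, the test without trend and robust fitting and the readjustment, the share of all genes called was not worked out. Counts under these settings therefore stand without a background, here and above. The moderated tests differ from the deposited one in the spread they use, and the readjustment only in the genes adjusted over; the cause of each changed call was not tested. With the longest transcript as length, chosen after seeing the data, the share of Hrk in Arid4bSCKO was 18.4% instead of 21.1%. No paired analysis was possible because the table holds group means and no values per pool, and leaving out single pools could not be run for the same reason. Depth limits Hrk in control, at about 12.5 reads per library.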
